A study of Caenorhabditis elegans with 4 samples.

Results

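Adult Caenorhabditis elegans fed control RNAi bacteria were compared after 36 h in hypoxia and after 36 h in normoxia, with 1 whole-animal RNA library for each condition. Both groups were adults of the wild-type strain N2 on modified NGM for RNAi feeding, with 20 °C as the labelled temperature, synchronised and exposed from day 1 of adulthood. The control food is an empty-vector RNAi food. The hypoxia group was held at 0.5% oxygen, balanced with nitrogen, in a sealed chamber at room temperature. The number of animals behind each library is not stated in the labels. Levels are RPKM, read numbers scaled by the authors to transcript length and library size. Genes were compared where the locus named 1 gene, the authors' status was not a failure, and the mean of the 2 libraries was at least 1 RPKM, which held for 10668 of 19852 loci. The ratio used throughout is log2((hypoxia RPKM + 1)/(normoxia RPKM + 1)), and a gene is called higher or lower where it was past 2-fold, a log2 ratio of at least 1 or of -1 or less. Where 2 levels of a gene are given, the normoxia library comes first. With 1 library a group there is no test and no error on any value, and any p-value printed comes from the authors' deposited table, where 1 library was set against the other.

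Worms take up oxygen by diffusion, and their main known transcriptional response to its loss runs through HIF-1. In normal oxygen the hydroxylase EGL-9 marks HIF-1 for VHL-1, which leads to its destruction. When oxygen is short, HIF-1 persists and, with its partner AHA-1, turns on target genes. The adult is mostly a germline that makes oocytes, an intestine that digests food, stores fat, makes yolk and meets microbes, and the muscle, nerve and epidermis of the body wall. RNA of whole animals mixes all of these, together with the embryos the adults hold, so a lower value from fewer cells of a type and one from less RNA per cell cannot be told apart.

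Of the genes compared, 1024 were at least 2-fold higher in hypoxia, 9.6% of those compared, and 400 were at least 2-fold lower, 3.75%. Counts given below for lists and families are read against these shares. Past 4-fold there were 151 higher genes, 1.42%, and 59 lower genes, 0.553%. The median log2 ratio was 0.01, with quartiles of -0.33 and 0.46. More genes were past 2-fold upward than downward while the typical gene stood near 0. On totals without ribosomal protein genes the counts were 832 and 523, and the higher share of all calls was 61.4% against 71.9%, with the median of all genes shifted by -0.10. The authors' deposited table called 50 of the compared genes, 0.469%, of which 41 were higher in hypoxia. The share of genes past 2-fold varied with level and with length. For a mean level of 2 to 5 RPKM, 16.4% of genes were higher, against 9.84% of those from 1 to 2 RPKM and 6.91% of those at 100 RPKM or more. The median log2 ratio was 0.32 for transcripts under 500 bases and -0.37 for those of 4000 bases or more. Corrected for the trend on length, the small heat shock protein median went from 1.01 to 0.68, that of saposin-like proteins from 0.60 to 0.34 and that of transthyretin-related genes from 0.58 to 0.37. For the lbp and far families it went from 0.32 to 0.04, and for histones from 0.01 to -0.33. Among ratios near 1, the most frequent between the values of low genes put 1 read in the hypoxia library at 0.998 times its value in the normoxia library. Ratios farther from 1 were not searched, so a large difference in depth could not have been found this way. The estimate rests on 36 of 1764 low loci in the peak, against a median of 2 at the other ratios searched, and no counts were available to check it.

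**Figure D1:**
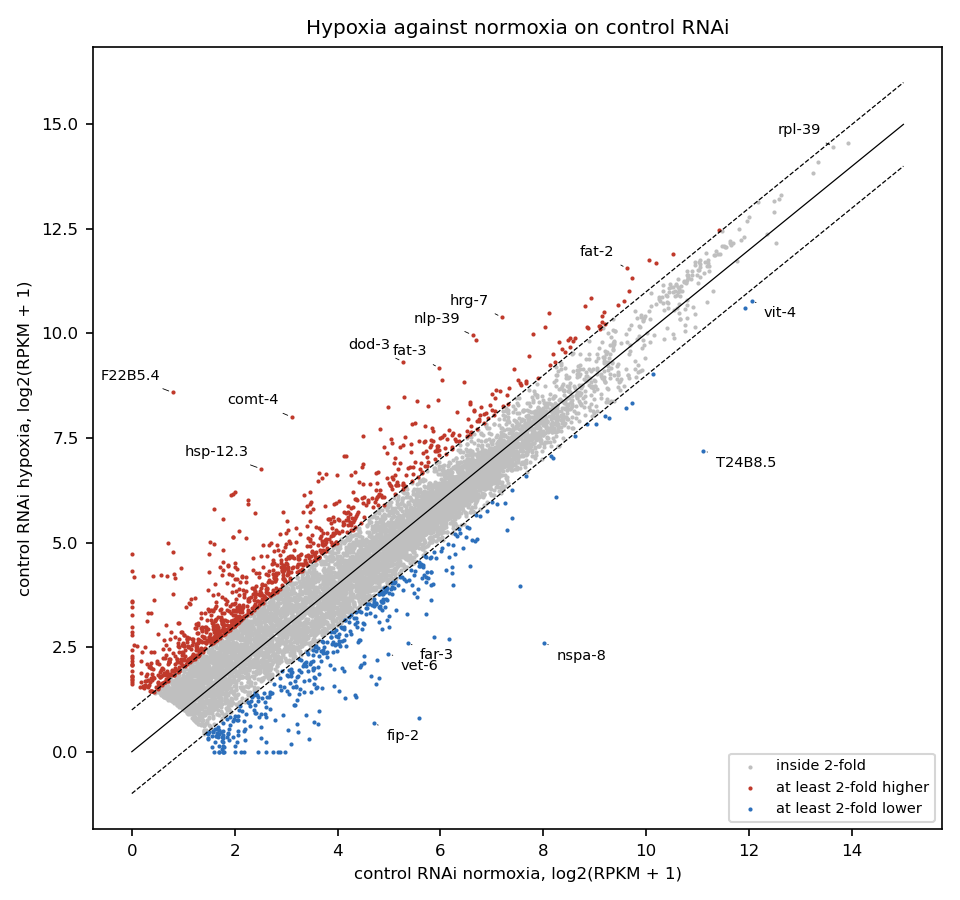
Level of each of the 10668 compared genes in the control RNAi normoxia library (horizontal axis) and the control RNAi hypoxia library (vertical axis), both as log2(RPKM + 1), with dashed lines at 2-fold. Genes named in the text are labelled. F22B5.4 stands farthest above the diagonal, at 0.734 and 384 RPKM, and nspa-8 farthest below it, at 257 and 5.04 RPKM.

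The core of the oxygen-sensing pathway differed little at the RNA level, and its known targets went several ways. No compared regulator of HIF-1 was past 2-fold higher and 1 of 7 was lower, with a median log2 ratio of -0.05. hif-1 itself was at 39.3 RPKM in normoxia against 43.3 in hypoxia, and its partner aha-1 at 20.1 and 15.7. For vhl-1, which recognises hydroxylated HIF-1, the levels were 14.9 and 14.4 RPKM. The nearest to a 2-fold higher value was cysl-1, deposited as C17G1.7, at 5.03 and 10.7 RPKM, a protein known to bind EGL-9 and keep it from acting on HIF-1. The lower gene was rhy-1, a membrane protein that restrains HIF-1 and is itself a HIF-1 target, at 25 RPKM in normoxia against 10.2 in hypoxia. Among 10 genes known to depend on HIF-1, 4 were higher and 2 were lower (median log2 ratio 0.36), so that both shares were above the 9.6% and 3.75% of all genes. The flavin monooxygenase fmo-2 was at 2.42 and 46.4 RPKM, and F22B5.4, a HIF-1-dependent gene of unknown function, was at 0.734 and 384 RPKM, the highest log2 ratio of all compared genes at 7.79. In the authors' deposited table F22B5.4 had a p of 0.0074 and an adjusted p of 0.261, so that it was not among their calls. At the other end, sqrd-1, the mitochondrial enzyme that oxidises hydrogen sulfide, was at 14.8 and 4.32 RPKM. The nuclear receptor gene nhr-57, a usual reporter of HIF-1 activity, was at 2.79 and 3.97 RPKM.

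Sulfide and cysteine metabolism, which in worms is tied to the same pathway, leaned low. Of 12 compared genes 2 were past 2-fold lower and none higher, and the median log2 ratio was -0.33. Beside sqrd-1, the lower gene was cdo-1, deposited as F56F10.3, the dioxygenase that begins cysteine breakdown, at 39.4 RPKM in normoxia against 15.9 in hypoxia. cth-2 (ZK1127.10), a cystathionine gamma-lyase that makes cysteine, was just inside the threshold at 249 and 127 RPKM. ethe-1 (C33A12.7), which acts on the persulfide that sqrd-1 makes, was at 15.8 and 15.9, and suox-1 (H13N06.4), the sulfite oxidase after it, at 10.7 and 7.54 RPKM. Genes of the oxygen-sensing neurons could not be compared, since none of 10 reached a mean of 1 RPKM. Among globins, the oxygen-binding family, none of 11 was past 2-fold, with glb-1, the most abundant of them, at 141 and 87.3 RPKM.

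Iron and haem genes held some of the highest ratios. In the haem transport list 6 of 9 were higher and none lower, with a median log2 ratio of 1.77. That list does not hold every gene named hrg. Over all 12 compared hrg genes 6 were higher and none lower, with a median of 0.74. hrg-3, deposited as F58E6.7, a small secreted protein known to carry maternal haem from the intestine to oocytes and embryos, was at 3.75 RPKM in normoxia against 59.8 in hypoxia. hrg-7 (C15C8.3), a secreted aspartic-protease-like protein that signals haem state between tissues, was at 145 and 1340.4 RPKM, the most abundant of the list in hypoxia. The importers hrg-1 and hrg-4, which move haem out of lysosome-like compartments and across the gut membrane, had log2 ratios of 3.05 and 1.97. Further members were nearer to normoxia, hrg-9 (R186.1) at 1.03 and 5.92 RPKM and hrg-6 at 3.01 and 8.06, with hrg-14, hrg-10 and hrg-13 inside 2-fold. Iron genes were mixed, with 3 of 7 higher and 1 lower. The ferritin ftn-1, which stores iron, was at 3.8 and 63.7 RPKM, and the more abundant ferritin ftn-2 at 344 and 579. smf-3, the intestinal importer of divalent metals, was at 1.82 and 25.4 RPKM. Of the ferroportin-like iron exporters, fpn-1.1 was at 16.4 and 51.9 RPKM and fpn-1.2 went the other way, at 3.18 and 0.414. aco-1, the cytosolic aconitase whose vertebrate counterpart doubles as an iron sensor, was at 45 and 65.1 RPKM.

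**Figure D2:**
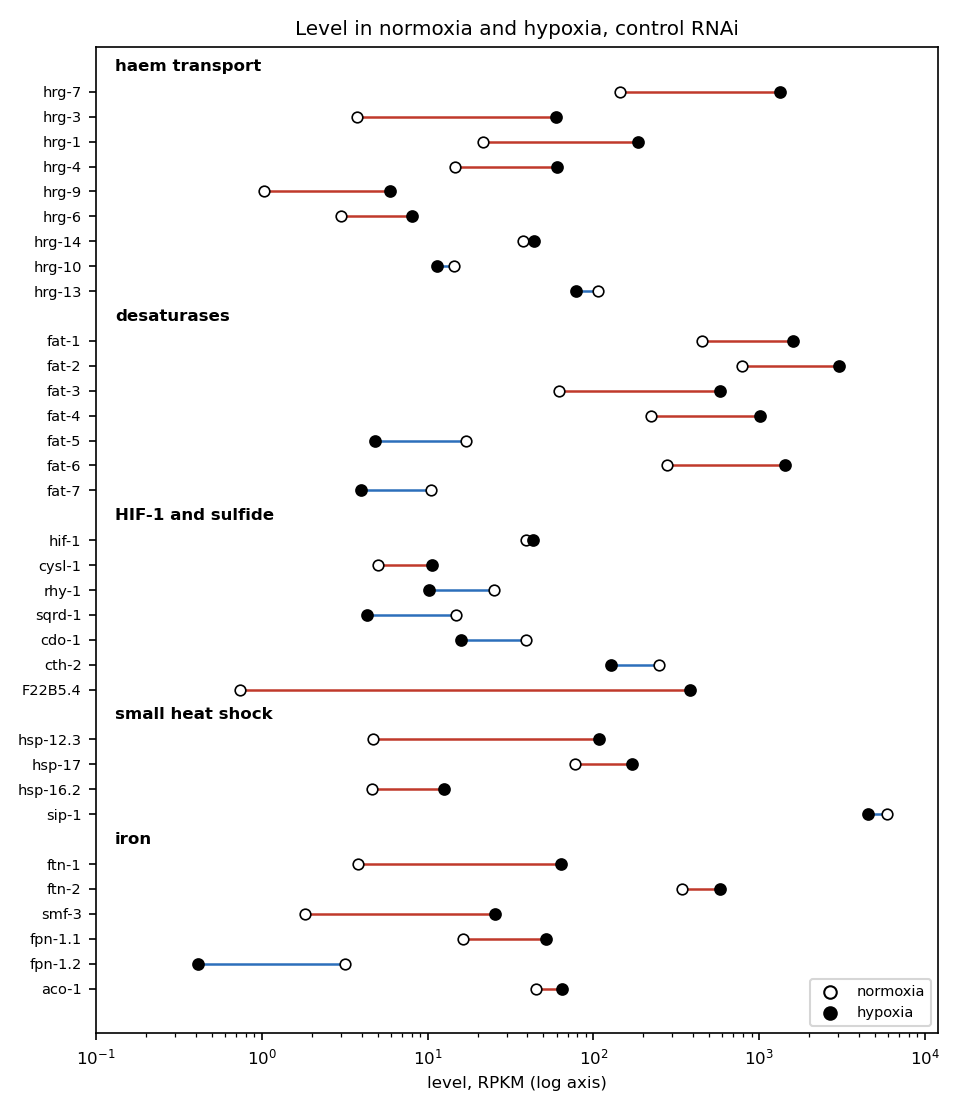
Level in normoxia (open circles) and hypoxia (filled circles) of members of 5 groups, in RPKM on a log axis, 1 library per condition. In the haem group hrg-7 goes from 145 to 1340.4 RPKM, and in the desaturase group fat-3 goes from 61.9 to 578 while fat-5 goes from 17 to 4.8.

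In energy metabolism single isoforms were past 2-fold while the medians of the pathways stayed near 0. Of 17 glycolysis and fermentation genes 4 were higher and none lower, with a median log2 ratio of 0.06. The 4 were adh-1, deposited as sodh-1, an alcohol dehydrogenase at 19.3 RPKM in normoxia against 102 in hypoxia, the aldolase aldo-1 (T05D4.1) at 19.1 and 64.9, the glyceraldehyde-3-phosphate dehydrogenase gpd-3 at 107 and 239.9, and the pyruvate kinase pyk-2 (ZK593.1) at 22 and 47.9. Other isoforms of the same steps were lower by less than 2-fold. The dehydrogenase genes gpd-1 and gpd-4, near-identical copies, had log2 ratios of -0.82 and -0.98, and pyk-1 (F25H5.3) one of -0.44. pfk-1.1, the phosphofructokinase that commits sugar to glycolysis, was at 31.2 and 15.3 RPKM. The lactate dehydrogenase ldh-1 was at 40.2 and 60.3 RPKM, inside 2-fold. In gluconeogenesis, the glyoxylate cycle and sugar stores 2 of 19 were higher, close to the 9.6% of all genes. These were gyg-1, deposited as uvt-5, the glycogenin that primes glycogen, at 5.97 and 17.8 RPKM, and the trehalose synthase tps-2 at 10.9 and 26.1. The glyoxylate cycle enzyme icl-1 (gei-7) had a log2 ratio of -0.99, just inside the threshold.

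None of 24 pyruvate dehydrogenase and citric acid cycle genes and none of 58 nuclear genes of the respiratory chain and ATP synthase was past 2-fold, with median log2 ratios of -0.07 and 0.18. The extremes of the cycle were sdha-1, the catalytic subunit of succinate dehydrogenase, at 5.73 and 10.7 RPKM, and suca-1 (F47B10.1), a succinyl-CoA ligase subunit, at 79.5 and 41.4. In the respiratory chain, log2 ratios ran from -0.12 to 0.88, the highest being ucr-2.1, a core subunit of complex III. Mitochondrial ribosomal proteins had a median log2 ratio of 0.05, with none of 59 past 2-fold. Among mitochondrial chaperones and stress genes the one past 2-fold was timm-23 (F15D3.7), a pore subunit of the inner-membrane import machinery, at 90 and 201 RPKM. The mitochondrial HSP70 hsp-6, the usual reporter of mitochondrial protein stress, was at 151 and 259 RPKM.

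Fat metabolism split within families. Among genes of fatty acid synthesis, elongation and desaturation 6 of 18 were higher and 2 lower, and the authors' deposited table called 5 of them. The desaturases that build polyunsaturated fatty acids were all higher, fat-2 at 787 and 3013 RPKM, fat-1 at 449 and 1603, fat-4 at 222 and 1015, and fat-3 at 61.9 and 578. The delta-9 desaturases, which make the first double bond, went apart. fat-6 was at 277 and 1426 RPKM, fat-7 at 10.5 and 3.96, and fat-5, which acts on palmitate, at 17 and 4.8. The fatty acid synthase fasn-1 was at 17.9 and 10 RPKM, inside 2-fold. In peroxisomal beta-oxidation 4 of 21 were higher and 1 lower (median log2 ratio 0.68), and in mitochondrial beta-oxidation 4 of 21 were higher and 1 lower (median -0.32). Here too single members stood out. The enoyl-CoA hydratase ech-9 was at 0.738 and 26.3 RPKM and ech-7 at 50.1 and 169. Acyl-CoA oxidases, which open each peroxisomal round, included acox-1.6 (F59F4.1) at 2.42 and 19.2 RPKM and acox-1.2 (F08A8.2) at 7.97 and 1.16. acdh-1, an acyl-CoA dehydrogenase of propionate and branched-chain breakdown, was at 155 RPKM in normoxia against 38.5 in hypoxia, the one gene of 12 in that list past 2-fold.

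Lipid carriers and membrane lipid genes moved little as families. Over all genes 9.6% were higher and 3.75% lower. Among lipid-binding proteins of the lbp and far families 2 of 16 were higher and 1 lower, lbp-3 being at 62.4 and 179.9 RPKM and far-3 at 40.1 and 5.08. In one-carbon and phosphatidylcholine synthesis pmt-1, which methylates phosphoethanolamine, was at 96.1 and 219 RPKM, while the S-adenosylmethionine synthases sams-1 and sams-3 (C06E7.1) had log2 ratios of -0.95 and -0.90, just short of 2-fold. Of 13 lipases 2 were higher, lips-11 at 0.342 and 2.41 RPKM and lips-14 at 1.48 and 4. The water and glycerol channels were higher for 2 of 9, aqp-1 at 14.2 and 59.9 RPKM and aqp-2 at 10.5 and 30.6.

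Among stress genes the small heat shock proteins stood apart from the large chaperones. Small heat shock genes, whose products bind unfolding proteins without using ATP, were higher for 7 of 13, with none lower and a median log2 ratio of 1.01. hsp-12.3 was at 4.7 RPKM in normoxia against 108 in hypoxia, hsp-17 at 77.6 and 171, and hsp-16.2 at 4.59 and 12.5. Both hsp-16.1 loci, near-identical copies between which reads may be split, were higher, at 41.3 and 111 RPKM and at 43.1 and 111. The embryonic member sip-1, by far the most abundant, was at 5919 and 4569 RPKM. None of 14 cytosolic HSP70, HSP90 and co-chaperone genes was past 2-fold (median log2 ratio -0.28). Hsp90, deposited as daf-21, was at 1588 and 1439 RPKM. In the endoplasmic reticulum 1 of 20 genes was past 2-fold, dnj-27, a thioredoxin-domain protein, at 19.5 and 9.18 RPKM. The BiP genes hsp-3 and hsp-4 had log2 ratios of -0.54 and -0.55. Proteasome subunits were below normoxia in each of the 31 genes compared, none past 2-fold (median -0.32). Autophagy genes had a median log2 ratio of 0.02, with the cargo receptor relative sqst-2 (Y40C5A.1) at 7.71 and 24.1 RPKM and sqst-1 (T12G3.1) next to the threshold at 29.6 and 58.9.

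Antioxidant enzymes were near normoxia, with 1 of 28 higher and none lower. The higher gene was the mitochondrial thioredoxin trx-2, at 74 and 155 RPKM. The peroxiredoxin prdx-2 was at 1462 and 1011 RPKM, and the manganese superoxide dismutase sod-3 was low in both, at 2.37 and 1.22. Detoxification families held more genes past 2-fold. Cytochromes P450, the first oxidation step on foreign and lipid molecules, were higher for 10 of 37, with 1 lower. cyp-13A5 was at 2.91 and 33.9 RPKM, cyp-35C1 at 30.2 and 92.3, and the lower gene, cyp-25A1, at 20.3 and 5.38. UDP-glucuronosyltransferases, which add a sugar to such products, were higher for 13 of 46 and lower for 4. ugt-18 went from 0.0285 to 17 RPKM, ugt-65 from 1.15 to 10.7, and ugt-63 from 20.1 to 5.21. Glutathione S-transferases had 2 of 30 higher and 4 lower, against 9.6% and 3.75% of all genes, and a median log2 ratio of 0.06. The omega-class gsto-1 was at 11.5 and 99.8 RPKM, whereas gst-4, the usual reporter of the oxidative stress factor SKN-1, was at 45.9 and 12.1 and gst-10 at 30.2 and 7.89. Of the cadmium-response genes, cdr-5 was at 1.9 and 8.58 RPKM and numr-1 at 2.56 and 10.6. The 2 metallothioneins, which bind metal ions, differed from each other, mtl-1 being at 188 and 434 RPKM and mtl-2 at 529 and 520.2.

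**Figure D3:**
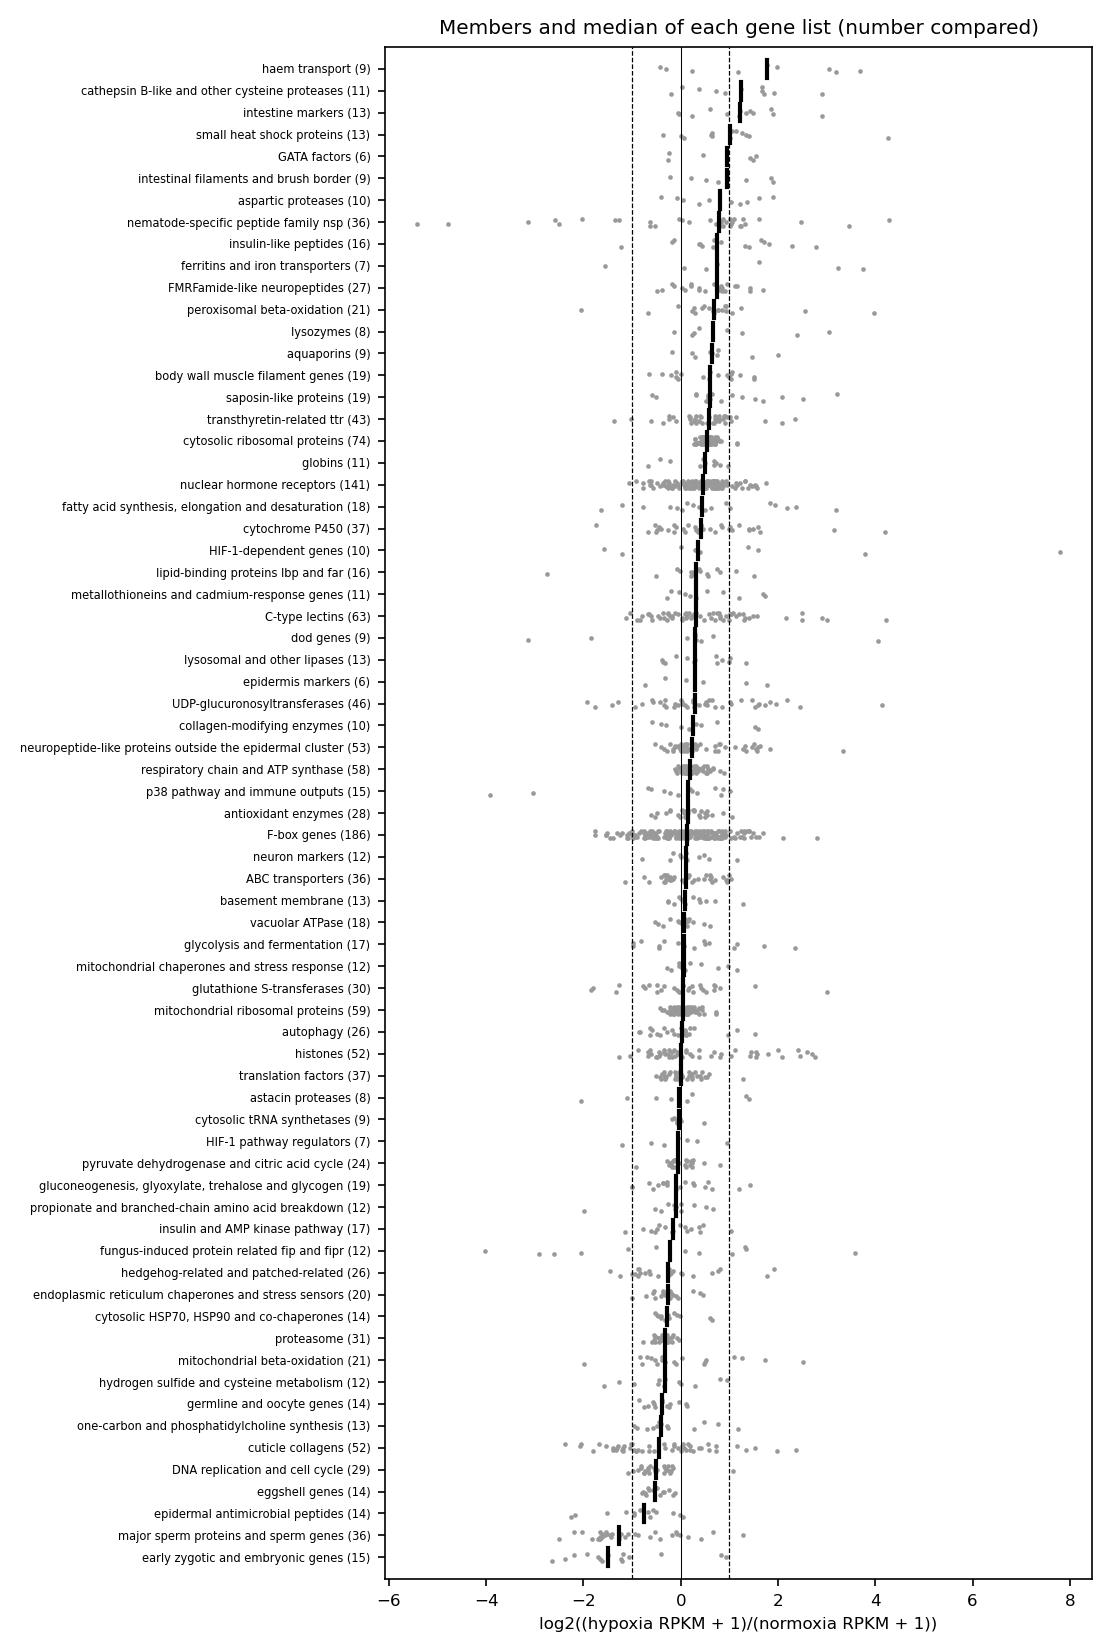
Log2 ratio of hypoxia over normoxia (horizontal axis) for each compared member (grey points) of the gene lists with at least 5 compared members, with the list median as a black bar and lists ordered by median; dashed lines mark 2-fold. Early zygotic and sperm genes have the lowest medians, at -1.49 and -1.28, and haem transport the highest, at 1.77.

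Digestive and immune genes of the intestine were higher in several families at once, beside 9.6% higher and 3.75% lower over all genes. Cysteine proteases, most of them cathepsin B-like enzymes that digest food, were higher for 6 of 11, with none lower and a median log2 ratio of 1.24. cpr-1 was at 27.3 RPKM in normoxia against 209.9 in hypoxia, cpr-8 (W07B8.1) at 14 and 48.2, and cpr-6, the most abundant cpr gene in normoxia, at 906 and 928. Aspartic proteases were higher for 5 of 10, with asp-6 at 839 and 2549 RPKM, asp-5 at 488 and 1833 and asp-12 at 8.43 and 23.2. Lysozymes, which cut bacterial cell walls, were higher for 3 of 8. lys-3 was at 2.42 and 27.4 RPKM, lys-4 at 29 and 155 and lys-2 at 393 and 948. In the saposin-like family, membrane-permeabilising proteins some of which kill bacteria, 7 of 19 were higher and none lower. spp-3 was at 1063 and 3432 RPKM, spp-2 at 53 and 306, and the abundant spp-5 at 2740.2 and 5683. C-type lectins were higher for 18 of 63 and lower for 2, among them clec-52 at 3.65 and 33.7 RPKM and clec-5 at 3.01 and 21.7. V-ATPase subunits, which acidify lysosomes and the gut lumen, had none of 18 past 2-fold.

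Among genes of the p38 MAP kinase pathway and immune outputs 1 of 15 was higher and 2 lower, with a median log2 ratio of 0.16. The lower genes were far below normoxia. T24B8.5 (now sysm-1) and irg-5 (F35E12.5), outputs of the p38 MAP kinase pathway, had log2 ratios of -3.91 and -3.03. The kinases of that pathway were not past 2-fold, nsy-1 being at 14.2 and 8.57 RPKM and pmk-1, the p38 kinase, at 22 and 17. C17H12.8, also known as an output of the p38 pathway, was at 551 and 1110.3 RPKM, so the outputs did not go one way. The dod genes, named for acting downstream of the insulin pathway factor DAF-16, were higher for 1 of 9 and lower for 2, with a median log2 ratio of 0.30. They included dod-3 at 37.5 and 641 RPKM and dod-17 at 26 and 2.07. Of 14 antimicrobial peptide genes of the epidermis 4 were lower and none higher (median log2 ratio -0.75). Among them nlp-29, the peptide gene most used to follow epidermal infection and wounding, was at 108 and 49 RPKM, and cnc-7 at 304 and 67.2. In the fungus-induced families, 5 of 12 were lower and 4 higher, fip-2 being at 25 and 0.606 RPKM.

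Among lists with at least 5 compared genes, those of embryos and sperm held the lowest medians. Of 15 early zygotic and embryonic genes 12 were lower, against 3.75% of all genes. vet-6, transcribed very early in the embryo, was at 30.7 RPKM in normoxia against 4.09 in hypoxia, and pes-10, expressed in the first somatic cells of the embryo, at 20.8 and 3.19. Zygotic sdz genes, named for dependence on the embryonic factor SKN-1, were lower for 9 of 22, and T-box factors for 4 of 11. pha-4 and hlh-1, which direct pharynx and muscle formation, were not lower, at 1.21 and 3.2 RPKM and at 0.602 and 1.85. Sperm genes were lower for 23 of 36, but 94 loci belong to that list and most were under 1 RPKM in the mean. The compared msp genes, which encode the cytoskeletal protein of crawling sperm, lay between -2.19 and -0.87 in log2 ratio. They share near-identical sequences, and the most abundant in normoxia, msp-81, was at 4.73 RPKM, with 0.259 in hypoxia. Members with higher levels were inside 2-fold or higher in hypoxia. ssp-37 (W02D9.5), the most abundant of the list, was at 109 and 173 RPKM, spe-39, a vesicle trafficking gene used in other tissues too, at 66.8 and 62, and ssp-10 at 14.4 and 36.4. Germline and oocyte genes were lower by less, with none of 14 past 2-fold and a median log2 ratio of -0.38. Eggshell genes had a median of -0.53 with none past 2-fold, cpg-1, a chondroitin proteoglycan of the eggshell, being at 1980.3 and 1137 RPKM. In DNA replication and the cell cycle the cyclin B genes cyb-3 and cyb-1 were at 1121 and 525 RPKM and at 658 and 332, while the cell cycle inhibitor cki-1 was at 3.45 and 8.37. Yolk protein genes vit-3 and vit-4, near-identical copies made in the intestine for the oocytes, had log2 ratios of -1.32 and -1.26, whereas vit-2, vit-5 and vit-6 were listed at 0 in both libraries with a status of too many reads to test.

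Core histone genes were divided. Of 52 compared histone loci 15 were higher and 2 lower, with a median log2 ratio of 0.01. One his-12 locus was at 2.42 and 22.1 RPKM and another at 2.29 and 20.3, and his-16 was at 2.68 and 21.2. These genes repeat in clusters of near-identical copies, so reads cannot be assigned to one copy with certainty.

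Structural genes of the body differed by tissue. Counts for these lists stand beside 9.6% higher and 3.75% lower over all genes. Of 52 cuticle collagens 18 were lower and 5 higher, out of 171 loci, the higher count being close to the share of all genes. The epidermis marker list, with 6 of 11 loci compared, had 2 higher and none lower (median log2 ratio 0.29). The abundant col-181 and col-101 were at 846 and 323 RPKM and at 777 and 297, and col-80 at 167 and 47. The 5 higher collagens all stood under 20 RPKM in both libraries, dpy-14 going from 0.576 to 7.12 RPKM, col-135 from 4.14 to 19.3 and dpy-17 from 1.26 to 5.49. Of the enzymes that modify collagen 2 were higher, the prolyl 4-hydroxylase subunit phy-2 at 7.29 and 23.8 RPKM and the lysyl hydroxylase let-268 at 2.06 and 7.88. Basement membrane genes had 1 of 13 past 2-fold, the fibulin fbl-1 at 3.3 and 9.52 RPKM. Muscle filament genes were higher for 6 of 19, with none lower and a median log2 ratio of 0.61. The myosin light chains mlc-3 and mlc-2 were at 100 and 286 RPKM and at 315 and 890.5, and the troponin T tnt-2 at 48.9 and 102. The myosin heavy chain myo-3, the defining marker of body wall muscle, was at 3.57 and 3.57 RPKM. Once corrected for transcript length, the muscle list had a median log2 ratio of 0.66. Intestinal filament and brush border genes were higher for 3 of 9, ifc-2 being at 17.5 and 45.7 RPKM, while ges-1, an esterase that defines the gut, was at 18.3 and 21.8. The intestinal GATA factor elt-2, targeted in the study's other libraries but not in these, was at 4.81 and 15.2 RPKM, and its relatives elt-7 and elt-4 at 5.38 and 16.1 and at 1.42 and 6.1. Intestine markers as a list were higher for 8 of 13, their summed level being 1841 RPKM in normoxia and 3601 in hypoxia. The list leaves out the yolk protein genes, which are also made in the intestine and went the other way. Of 3 compared yolk protein genes 2 were lower, and their summed level was 8826 RPKM in normoxia and 3712 in hypoxia. The marker list shares cpr-1, asp-1, mtl-1 and mtl-2 with the protease and metallothionein groups described above. It also shares genes with the intestinal filament and GATA factor groups. Without cpr-1, asp-1, mtl-1 and mtl-2 alone, the marker sum was 337 RPKM in normoxia and 669 in hypoxia. The part of this shift of the marker list in the digestive, immune and lipid results above was not tested. No gene of the marker list was at 0. Pharynx markers were mostly absent from the comparison, with 2 of 11 compared and the pharyngeal myosin myo-2 at 0.247 and 0.163 RPKM. Of the 2 compared, phat-6 was at 5.69 RPKM in normoxia and listed at 0 in hypoxia, and was among the authors' calls. The other had a log2 ratio of -0.30.

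Counts of signalling peptide genes are read against the 9.6% of all genes that were higher and the 3.75% that were lower. FMRFamide-like neuropeptide genes were higher for 5 of 27 with none lower (median log2 ratio 0.74), flp-21, which encodes a ligand of the receptor NPR-1, being at 1.75 RPKM in normoxia against 7.89 in hypoxia and flp-6 at 32.9 and 90.4. Other neuropeptide-like genes were higher for 12 of 53 with none lower and a median of 0.23, which was 0.003 with the length trend removed. nlp-39 had the highest ratio of them, at 97.7 and 996 RPKM, one of the genes the authors' deposited table called. General neuron markers had a median log2 ratio of 0.11, and 1 of 12 was past 2-fold, unc-64, the syntaxin of synaptic release, at 18.1 and 41.7 RPKM. The synaptobrevin snb-1 was at 164 and 181 RPKM. Insulin-like peptides, short genes, were higher for 7 of 16 and lower for 1. ins-7, known as an activator of the insulin receptor DAF-2 made in the gut, was at 9.23 and 69.6 RPKM, ins-19 at 56.9 and 202, and ins-28 at 7.19 and 2.5. The same correction gave medians of 0.53 for insulin-like and 0.50 for FMRFamide-like peptides, against 0.75 and 0.74 before. In the pathway that answers insulin, the receptor daf-2 was at 25.1 and 14.3 RPKM, and the kinases pdk-1 and sgk-1 at 16.5 and 6.91 and at 10.7 and 22.9, pdk-1 past 2-fold lower and sgk-1 past 2-fold higher. Nuclear hormone receptors were higher for 16 of 141, close to the 9.6% of all genes, with 1 lower. nhr-80, which controls the delta-9 desaturases, was at 2.94 and 10.6 RPKM, and nhr-42 at 2.62 and 11.2.

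Among the gene lists, cytosolic ribosomal proteins had the largest shift in share of the transcript pool. Cytosolic ribosomal protein genes held 19.9% of the summed RPKM of compared genes in normoxia and 25.8% in hypoxia. All 74 of 74 had a ratio above 0, against 50.9% of all genes, and 2 were past 2-fold. Their median log2 ratio was 0.55, and 0.29 once the trend on transcript length was removed, these transcripts being short. The largest single difference in level was that of rpl-39, at 12751 RPKM in normoxia against 22693 in hypoxia. The 2 past 2-fold were rpl-11.2 at 339 and 758 RPKM and rpl-23A.1, deposited as rpl-25.1, at 364 and 818. Translation factors had a median log2 ratio of -0.003 with 1 of 37 past 2-fold, iff-2, an eIF5A gene of the soma, at 108 and 266 RPKM. Cytosolic tRNA synthetases were all inside 2-fold. Translation factors held 1.67% of the summed RPKM in normoxia and 1.59% in hypoxia, and these synthetases 0.115% and 0.0993%. Apart from ribosomal proteins, the largest positive differences in level included those of T07A5.5 (now ostf-4) at 15452 and 23988 RPKM, C08F11.11 (now ule-4) at 4605 and 9067, C17F4.7 at 2837 and 5616, and F56H9.2 at 1478 and 3842. The largest negative differences in level were those of vit-4, at 4232 and 1765 RPKM, vit-3, at 3871 and 1548, and T24B8.5, at 2203 and 146. Next were sip-1 and cpg-1, given above, and pos-1, an RNA-binding protein that patterns the early embryo, at 1724 and 1073 RPKM.

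**Figure D4:**
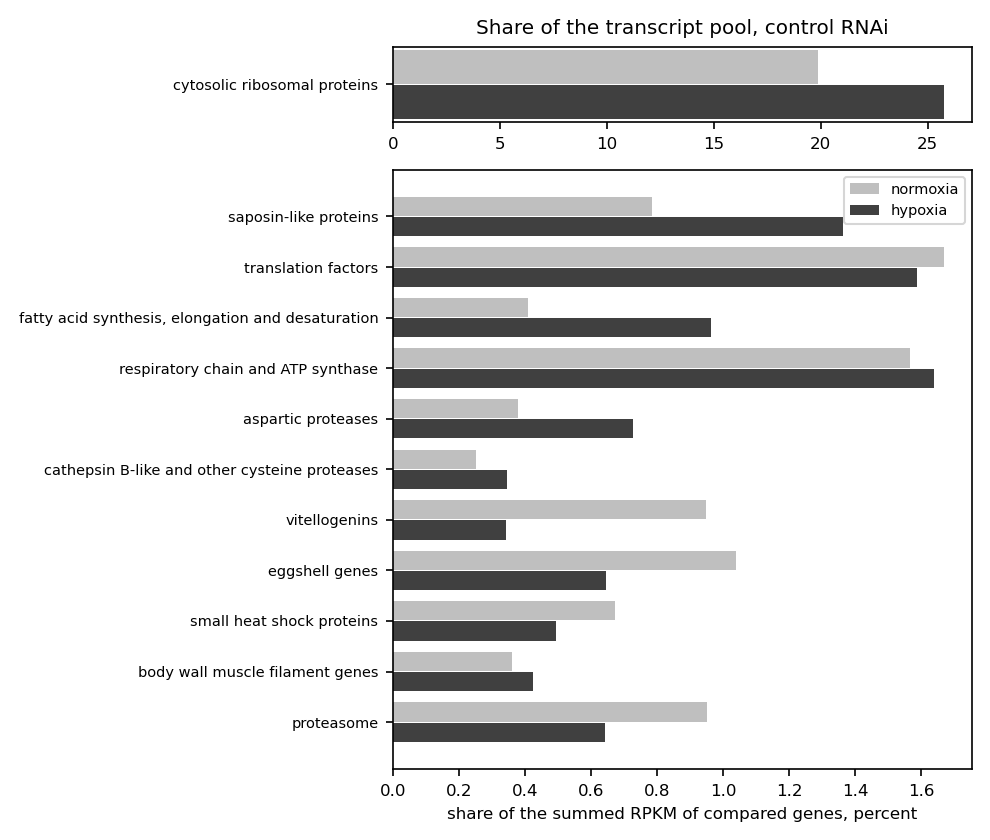
Share of the summed RPKM of compared genes, in percent, held by 12 gene lists in the control RNAi normoxia library (light bars) and the control RNAi hypoxia library (dark bars), 1 library each; the upper panel shows ribosomal proteins alone, on a wider axis. Ribosomal proteins go from 19.9% to 25.8%, and fatty acid synthesis and desaturation from 0.408% to 0.964%.

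Families defined only by a shared gene name were also listed, 100 of them with at least 10 compared members. Their counts stand beside 9.6% higher and 3.75% lower over all genes. The highest median was that of the math genes, which carry a MATH domain, at 1.01 with 9 of 17 higher, math-14 being at 1.98 RPKM in normoxia against 9.22 in hypoxia. Next were the bZIP transcription factors named zip, with a median log2 ratio of 1.00 and 5 of 10 higher, including zip-5 at 11.5 and 39.8 RPKM and zip-10 (T27F2.4) at 17 and 51.5. The claudin-like clc genes, membrane proteins of cell junctions in other animals, were higher for 7 of 15, clc-19 (T24C4.4) being at 25.9 and 101 RPKM. The pals genes, several of which respond to intracellular pathogens, were higher for 5 of 13, at low levels such as 0.413 and 3.49 RPKM for pals-6 (C17H1.7). Peptide families of nematodes were split, nspc genes being higher for 8 of 18 and several nspa genes lower, among them nspa-8 at 257 and 5.04 RPKM and one nspa-1 locus at 15.3 and 1.71. Both families are made of near-identical copies. F-box genes, adaptors for protein destruction, differed between their classes. Those of the fbxa class were higher for 19 of 90 and lower for 2, with fbxa-163 at 1.81 and 18.7 RPKM, whereas the fbxb genes were higher for 1 of 67 and lower for 10, with fbxb-17 at 31 and 8.41. The rgs genes, regulators of G protein signalling, were lower for 3 of 10, rgs-9 being at 56.9 and 15.2 RPKM. Transthyretin-related genes were higher for 6 of 43 and lower for 2, ttr-34 being at 44.3 and 232 RPKM.

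The highest ratios also included genes known in the files only by a sequence name. Of the 30 highest ratios at a mean level of 5 RPKM or more, C36C5.12 was at 0.338 RPKM in normoxia against 17.3 in hypoxia, F10D2.8 at 1.87 and 31.2, Y54G2A.32 at 0.933 and 20.1, and C37C3.10 at 0.757 and 18.1. The name F45D11.14 stood on 3 loci, between which reads may be split, and the one with the highest ratio was at 0.492 and 17.6 RPKM. B0238.12 (now spi-2) was at 2.03 and 30.3 RPKM and B0205.13 at 4.24 and 51.4. C07G1.7 was listed at 0 in the normoxia library and at 11.2 RPKM in the hypoxia library. The peptide gene nspb-10 was likewise listed at 0 in normoxia, with 10.1 RPKM in hypoxia. Among the 30 lowest, dhs-26, a short-chain dehydrogenase, was at 19.2 and 1.57 RPKM, C54D10.3 at 24.1 and 2.52, T05E12.6 at 52 and 8.85, and the nitrilase nit-1 at 20.6 and 3.09. The pharyngeal gland-related phat-8 (F15A4.6) and phat-7 (C49G7.3) were at 10.6 and 0.649 RPKM and at 9.48 and 0.846. Of the genes given above, the loci of the leading ones lie, in the ce10 coordinates of the authors' files, at chrII:8449650-8452628 for F22B5.4, chrV:2049334-2050171 for Y40B10A.6, chrV:12742024-12744153 for hrg-7 (C15C8.3), chrIV:9803006-9806101 for fat-3, chrV:14826854-14827055 for nspa-8 and chrII:9082621-9083081 for T24B8.5. Of the 30 highest genes the authors' deposited table called 8, and of the 30 lowest 4.

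A second pair of libraries, labelled elt-2 RNAi, was exposed to the same 2 oxygen levels and shares no library with the pair described. It is not a replicate, since the food differed. There elt-2 was listed at 14.3 and 23.8 RPKM, each above the 4.81 and 15.2 RPKM of the control library at the same oxygen level. The knockdown that the label names is therefore not seen in the level of elt-2 itself. Some other genes differed between the 2 normoxia libraries. On control RNAi cpr-1 was at 27.3 RPKM, against 0.775 in the other pair, and ech-7 at 50.1 against 0.452, while fat-2 was at 787 and 788. Whether these differences come from a knockdown was not tested. Of the 30 highest genes above, 25 were past 2-fold higher in that pair too, and of the 30 lowest 27 were past 2-fold lower, against 9.6% and 4.17% of the compared genes in that pair. The haem transport list had a median of 1.99 there, early zygotic genes -1.24 and muscle filament genes 0.69, against control values of 1.77, -1.49 and 0.61. Other lists lay at various distances. Lysozymes had a median log2 ratio of 0.66 in control RNAi and -0.29 in the other pair, cysteine proteases 1.24 and 0.50, and C-type lectins 0.31 and -0.15. The filter on level used the control pair only. In the other pair some members were near 1 RPKM or below, where the pseudocount draws ratios toward 0. There cpr-1 was at 0.775 and 0.526 RPKM and lys-4 at 1.35 and 1.63, while lys-2 was at 255 and 334. The part of this in the list medians was not tested. For saposin-like genes the medians were 0.60 and 0.29, for aspartic proteases 0.81 and 0.49, and for intestine markers 1.22 and 0.99. Iron genes, at 0.75 and 1.40, and small heat shock proteins, at 1.01 and 1.74, had the higher median in the other pair. Of the named genes, ech-9 was at 0.143 and 0.219 RPKM in that pair, clec-47 at 0.69 and 1.39, and comt-4, deposited as Y40B10A.6, at 3.43 and 13.6. On control RNAi comt-4 had 7.6 and 256 RPKM, the second highest log2 ratio of these 30 genes. Whether the hypoxia effects differ between foods cannot be tested with 1 library in each of the 4 groups.

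**Figure D5:**
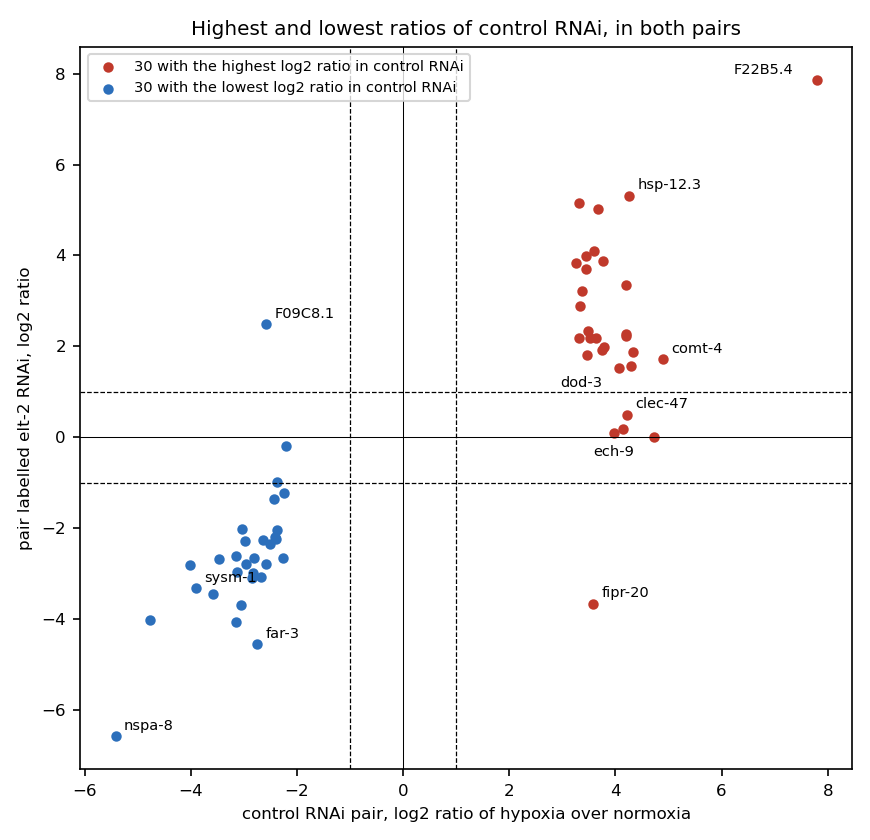
Log2 ratio of hypoxia over normoxia in the control RNAi pair (horizontal axis) and in the pair labelled elt-2 RNAi (vertical axis) for the top 30 and the bottom 30 genes by ratio in control RNAi, with 1 library per group and dashed lines at 2-fold. Of the 30 highest, 25 lie above 2-fold in the second pair. fipr-20, among the 30 highest, and F09C8.1, among the 30 lowest, lie past 2-fold on the opposite side.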

How the data were processed

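Total RNA of whole animals was extracted with TRIzol and sequenced as paired-end libraries, with all 4 libraries of the study on 1 HiSeq lane, per the labels' protocols. TopHat2 2.0.8b, Cufflinks 2.1.1 and the build ce10 are named in the submitters' processing notes, which give no role for each. The authors deposited RPKM per locus with a status, a p-value and an adjusted p-value for each pair of libraries. The RPKM and p-value columns were used as deposited, and no count was available. Absolute depth is therefore unknown, and precision is limited by 1 library per group. Whether a library pools cultures is not stated in the labels.

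Log2 ratios were computed with a pseudocount of 1 RPKM over loci with 1 gene name, an accepted status and a mean of at least 1 RPKM, in Python 3.11.15 with pandas 2.3.3 and numpy 2.4.6. The 2-fold call was tested on simulated data with known folds, which measures no spread between real libraries. Loci naming several genes (334) and 6 loci with a failed or overloaded status were left out. Gene symbols were matched for 19063 loci, 14777 of them by RefSeq accession and the others by locus tag or name. A transcript length was found for 10243 compared genes, 96% of them. The 73 gene lists, and the comparison itself, were chosen with earlier results of these data known. The log2((RPKM + 1)/(RPKM + 1)) scale understates differences of low genes. Genes named in the text are the 30 highest and 30 lowest ratios at a mean of at least 5 RPKM, the 15 largest differences in level each way, the 4 highest and 4 lowest members of each list or name family (all where 8 or fewer were compared), elt-2, cell type markers, and neighbours across a threshold. Outside that rule, fat-1, hrg-9, ldh-1, hsp-17, nhr-57, suox-1, hsp-90, pyk-1, pmk-1 and spe-39 were named after their values were seen, for their known roles or levels. Alternatives were pseudocounts of 0.1 and 5, other filters on low values and status, 2 other scalings, loci with several names kept, a 4-fold threshold, the pair labelled elt-2 RNAi and, chosen after seeing the data, removal of the running median of 501 genes ordered by transcript length. Promoter motifs were planned and not run, because no promoter sequence was used here.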

Additional observations from a re-analysis of the deposited data

Results flagged for a closer look

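Among the genes named by the rule, 3 were past 2-fold one way in the control RNAi pair and past 2-fold the other way in the pair labelled elt-2 RNAi. With 1 library per group these differences were not tested. fipr-20, a fungus-induced protein related gene, was listed at 0 RPKM in normoxia against 11 in hypoxia on control RNAi, a log2 ratio of 3.58. In the other pair it was listed at 11.7 and 0 RPKM, a log2 ratio of -3.67. Each of these ratios rests on a value listed at 0, and no counts were available to check it. F09C8.1 had 26.4 and 3.57 RPKM on control RNAi, a log2 ratio of -2.58, and 1.17 and 11.1 RPKM in the other pair, a log2 ratio of 2.48. gst-38, a glutathione S-transferase gene, had 22.6 and 8.77 RPKM, a log2 ratio of -1.27, against 3.3 and 9.1 RPKM and a log2 ratio of 1.23. Over all compared genes 8 were higher on control RNAi and lower in the other pair, and 5 the reverse.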

How the results depend on the processing

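The counts of 1024 higher and 400 lower genes became 464 and 170 with a pseudocount of 5, which draws low genes toward 0 by construction. They were 151 and 59 at 4-fold, and 672 genes were higher with a mean of at least 5 RPKM, where fewer genes are compared. The median log2 ratio of sperm genes was -2.45 with a pseudocount of 0.1, -0.47 with 5, -0.62 with no filter and -0.14 at a mean of at least 5 RPKM, so it rests on low genes. Haem transport had a median of 0.86 with a pseudocount of 5, and hedgehog-related genes one of -0.87 where means reach 5 RPKM. In the pair labelled elt-2 RNAi, medians were 1.40 for iron genes, 1.74 for small heat shock proteins, -0.29 for lysozymes, 0.50 for cysteine proteases and -0.94 for the fip and fipr families. There the named genes with the opposite sign were fipr-20 at -3.67, F09C8.1 at 2.48, fpn-1.2 at 0.078, gst-38 at 1.23, clec-5 at -0.030, cpr-1 at -0.22 and ins-28 at 0.20. The cause was not tested. In that pair clec-5 was at 0.263 and 0.236 RPKM and cpr-1 at 0.775 and 0.526, so their signs rest on levels under 1 RPKM. List medians changed sign under rescaling without ribosomal protein genes for 8 of 69 lists and with the length trend removed for 8, the largest median among them being 0.09 and 0.15 in size. Low genes are the least certain, since 1 library a group gives no spread. No paired analysis was possible because each group has 1 library and the labels give no replicate numbers.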

Other observations

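The share of genes past 2-fold differed between chromosomes. On chromosome I, 5.45% of compared genes were at least 2-fold higher and 2.18% lower, against 12% and 4.74% on V and 13% and 5.95% on X. Level and length also varied among these genes, and their part in the difference was not tested.

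The flavin monooxygenase fmo-1 was seen only in a locus that also names K08C7.7, which stood at 1.19 RPKM in the normoxia library and 29.5 in the hypoxia library and was among the calls of the authors' deposited table. The calcium pump gene sca-1 was listed at 175 RPKM in normoxia and at 0 in hypoxia with a failed status, and at 0 and 159.9 RPKM in the pair labelled elt-2 RNAi, so the zeros are not read as levels.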
